A study of Drosophila melanogaster with 2 samples.

Results

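The genes described here encode the factors that start, lengthen and end the protein chain on the ribosome of Drosophila melanogaster. They are all genes of Ensembl release 115 whose symbol begins with eIF, eEF or eRF and a digit. The rule found 53 genes among 18164 annotated genes, all of them protein-coding, of 13945 protein-coding genes in all. By symbol 44 are initiation factors, 7 are elongation factors and 2 are release factors.

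The data are peak lists from chromatin immunoprecipitation followed by sequencing of CG34376, a Drosophila protein known here by its annotation number. Whole embryos aged 0 to 24 h, male and female together, came from a fly line with a transgene that adds GFP to the C-terminal end of CG34376. The labels give 2 biological replicates, numbered 2 and 3, which form 1 group without any second genotype, treatment or age, and both were set against the same control file. A line of the labels describes each library as an input control while the assay title and antibody field describe an immunoprecipitation, and the libraries were read as immunoprecipitated. No untagged line was compared, and the transgene's promoter is not given in the sources used here. The embryonic stage cannot be checked from peak positions, and in whole embryos a site bound in few cells and a site bound weakly in many cells cannot be told apart.

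Translation begins when initiation factors load the initiator tRNA onto the small ribosomal subunit, bring the capped mRNA to it and choose the start codon. Elongation factors then deliver each aminoacyl-tRNA and move the ribosome along the mRNA, and release factors free the finished chain at the stop codon. Many fly genes of this machinery are transcribed in almost every cell from promoters that carry the DNA replication-related element (DRE), which the protein DREF binds, or, at ribosomal protein genes, an initiator with a run of pyrimidines known as the TCT motif.

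The start regions below show the promoter letters that recur among the factor genes. Each runs from 60 bases upstream to 20 bases from the start onward, on the gene's own strand, read from the RefSeq Release 6 genome, which is build dm6. Capitals mark the DRE (TATCGATA), the shorter string CGATA or its reverse complement TATCG, which every DRE also contains, and the TCT core (CTTT beginning within 5 bases of the start). The first 3 genes had a peak above the authors' threshold at their start, and the elongation factor genes eEF1delta and eEF1alpha2 did not.
eEF1gamma, chr3R:29220112-29220191, plus strand: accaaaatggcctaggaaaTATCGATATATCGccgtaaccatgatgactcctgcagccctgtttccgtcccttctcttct
eIF3a, chr3R:4433876-4433955, minus strand: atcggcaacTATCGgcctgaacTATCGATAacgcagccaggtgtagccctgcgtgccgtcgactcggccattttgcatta
eIF3f1, chr3R:4714163-4714242, minus strand: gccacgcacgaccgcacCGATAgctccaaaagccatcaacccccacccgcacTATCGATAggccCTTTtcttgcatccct
eEF1delta, chr2L:10232447-10232526, plus strand: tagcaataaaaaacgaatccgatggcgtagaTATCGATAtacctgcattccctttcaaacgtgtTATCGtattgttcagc
eEF1alpha2, chr3R:31738408-31738487, plus strand: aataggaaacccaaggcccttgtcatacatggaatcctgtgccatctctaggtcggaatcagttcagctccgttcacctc

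At other bound genes too the DRE lay within 100 bp of the peak summit, the base of highest enrichment. These stretches of 30 bases show it in capitals on the strand of the gene. Its centre was 40 bp from the summit at eIF1 and at eIF2A, 14 bp at eIF2gamma, whose summit window held 3 copies, and 21 bp at eRF1. The DRE at the eIF1 summit lay 292 bp upstream of the eIF1 start. That summit was closer to the start of the divergent gene RpL28, at 49 bp. At eIF6, whose stretch is not printed, it was 91 bp from the summit.
eIF1, chr3L:3223034-3223063, plus strand: ggcagggcaacTATCGATAagcatttcgta
eIF2A, chr3L:21824865-21824894, plus strand: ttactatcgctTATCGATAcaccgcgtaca
eIF2gamma, chr3R:15263517-15263546, minus strand: gggcggcactcTATCGATAcgcatcgcagt
eRF1, chr3L:20348319-20348348, plus strand: atattttaagaTATCGATAatgtcatcgga
The elongation factor gene eEF2 had no DRE there but a TCT core, marked by capitals in the 30 bases around its canonical start.
eEF2, chr2L:21682097-21682126, minus strand: tgcagcgcctcgctCTTTcctgtcgaaacg

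CG34376 occupied the promoters of about as many factor genes as it left without a peak. A gene was called bound when a summit of the thresholded list, 7025 peaks, lay within 500 bp of one of its annotated starts. By this measure 26 of the 53 genes were bound (49.1%), beside 30.1% of protein-coding genes. In the pooled candidate list, which holds 30000 lines by a preset length and so includes weak entries, 39 of the 53 genes had a summit in range (73.6%), beside 60.4% of protein-coding genes. The 14 genes with no pooled candidate were all initiation factors, 14 of 44, beside 5519 of 13945 protein-coding genes. The share of initiation factor genes with a candidate, 68.2%, was thus above the 60.4% of protein-coding genes.

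The same reading was made in each replicate from its own 7025 highest candidates. In replicate 2, 25 factor genes were bound (47.2%), beside 28.8% of protein-coding genes. In replicate 3, 23 were bound (43.4%), beside 30.0% of protein-coding genes. The mean over both replicates was 45.3% ± 2.67 for the factor genes and 29.4% ± 0.908 for protein-coding genes (SD, n = 2). Of the 26 bound genes, 19 were bound in the thresholded list and in both replicates. Another 4 (eIF5B, eIF3j, eIF2Bepsilon and eIF4H1) were bound in the thresholded list and in replicate 2, and 3 (eIF2gamma, eIF3m and eRF1) in the thresholded list and in replicate 3. Outside the thresholded list, eIF1A and eEF1beta reached the highest 7025 of replicate 2, and eIF2Bdelta that of replicate 3. These counts are by gene and not by site, so another summit in range can carry a replicate. At eIF4E1 and eIF4G2, both among the 19, replicate 3 had no candidate within 100 bp of the pooled summit. The share of protein-coding genes bound in all 3 lists was not computed.

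The number of annotated starts gives a gene more places to be called bound. Among genes with a single start, 9 of 31 factor genes were bound (29.0%), beside 23.0% of protein-coding genes. Among genes with several starts, 17 of 22 factor genes were bound (77.3%), beside 49.7%. Several starts were annotated for 41.5% of factor genes and for 26.5% of protein-coding genes. The part of start number in the share of bound genes was not tested further.

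A few factor genes held some of the strongest promoter peaks of the data set. Among the 1000 strongest thresholded peaks, 7 factor genes had a summit in range (13.2%), beside 5.28% of protein-coding genes. They were eEF1gamma, eIF6, eIF4EHP, eIF1, eIF3h, eEF2 and eIF3a. Each of the 7 also ranked among the 1000 highest candidates in both replicates. The other bound genes were weaker, so that the median signal of the 26 was 239, in the authors' units, against 268 for all bound protein-coding genes. Their median rank was 3859, where rank 1 is the strongest peak of the list, against 3133.

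**Figure D1:**
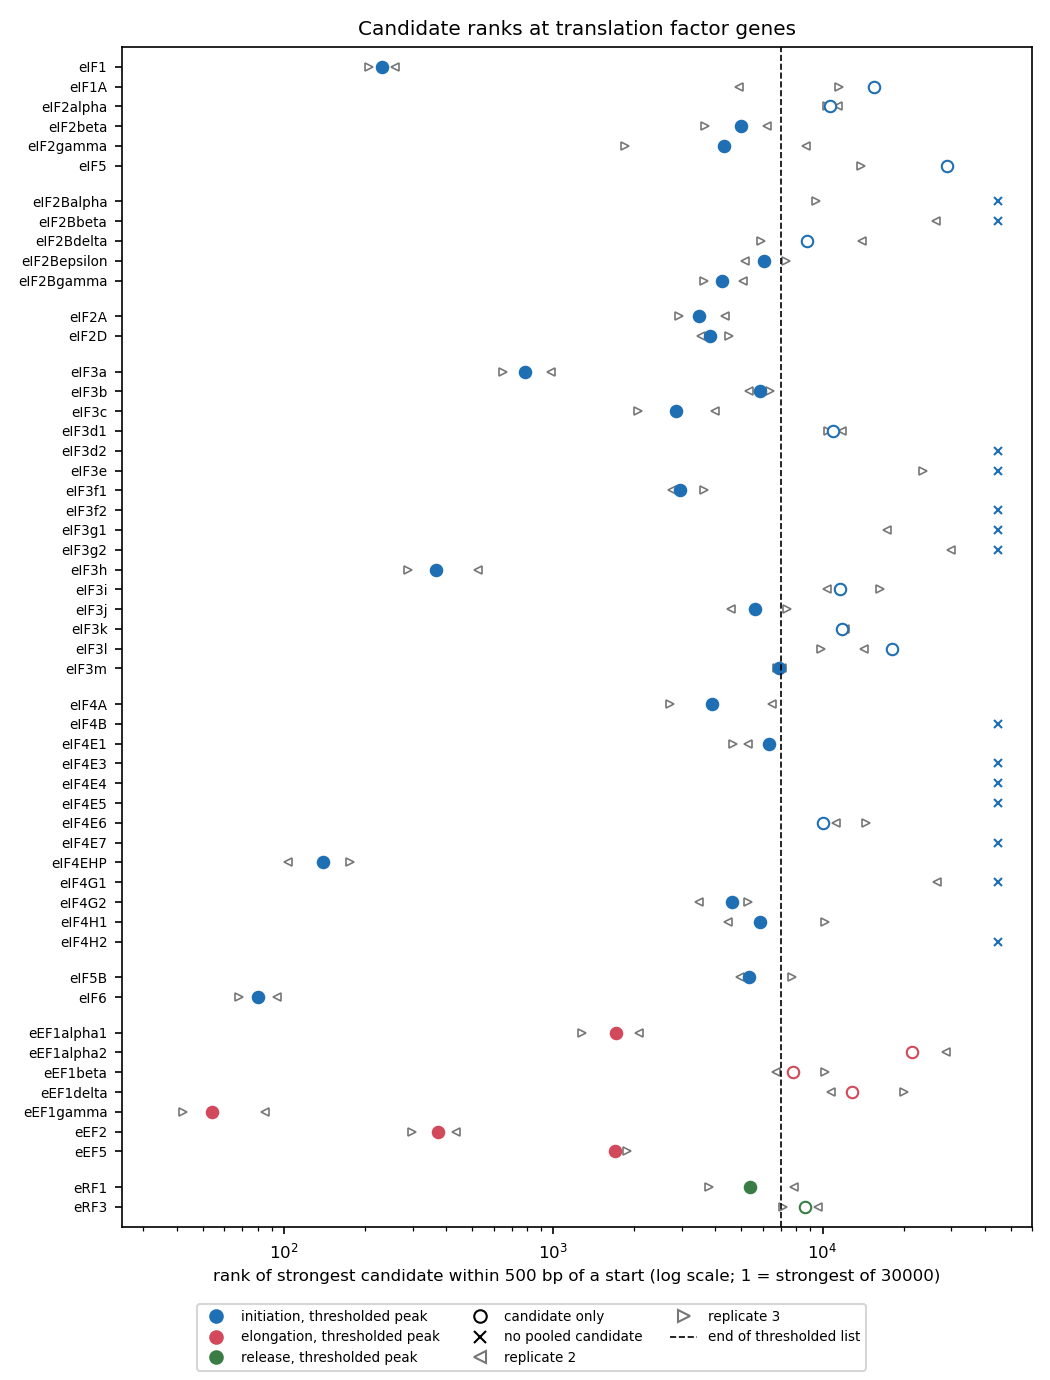
Rank of the strongest candidate within 500 bp of a start of each of the 53 factor genes, on a log axis, for the pooled list (circles, filled where the peak passed the threshold; crosses for no pooled candidate) and for replicates 2 and 3 (triangles). The 7 genes at the left lie under rank 1000 in all 3 lists. No pooled candidate is listed for 14 of 44 initiation factor genes, beside 5519 of 13945 protein-coding genes.

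Initiator tRNA and start-codon factors were split. Of the 6 genes of eIF1, eIF1A, eIF2 and eIF5, 3 were bound, beside 30.1% of protein-coding genes. All 6 had a candidate, beside 60.4% of protein-coding genes. eIF1, which guards the choice of the start codon, had a signal of 799.8 at rank 232, with ranks of 258 in replicate 2 and 206 in replicate 3. That summit lay 332 bp upstream of the eIF1 start and 49 bp upstream of RpL28, a ribosomal protein gene transcribed in the other direction. A separate eIF1 summit, 133 bp upstream, had a signal of 283.5 at rank 2801, with ranks of 6601 and 1721. Both eIF1 summits therefore stood above the threshold, the stronger one closer to the start of the neighbour.

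The eIF2 complex carries the initiator tRNA, and its 3 subunits differed. eIF2gamma, the GTP-binding subunit, had a signal of 224.4 at rank 4308, with a rank of 8698 in replicate 2 and 1844 in replicate 3. Its summit lay 60 bp upstream of a start that Su(var)3-9 shares and 34 bp upstream of Set on the other strand, so these 3 genes cannot be told apart by this peak. eIF2beta had a signal of 203.7 at rank 5000, 280 bp upstream, with ranks of 6209 and 3654. eIF2alpha, the subunit that is phosphorylated under stress, had a candidate of 114.1 at rank 10679, below the threshold, with ranks of 11394 and 10376. Its 2 replicate ranks lay close together and both below the 7025 highest, unlike those of eIF2gamma, which fell on either side of that line.

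eIF1A, a partner of eIF1 in scanning, had its strongest pooled candidate at 79.3, rank 15482. A thresholded summit of 175.0 lay 526 bp from the eIF1A start, just outside the window. eIF5, which triggers GTP hydrolysis by eIF2, had the weakest candidate of all 53 genes, 39.6 at rank 28991, and no candidate in range in replicate 2.

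The exchange factor eIF2B, which reloads eIF2 with GTP, had 2 of 5 subunit genes bound, beside 30.1% of protein-coding genes. Pooled candidates were listed at 3 of 5, near the 60.4% of protein-coding genes. The 2 bound genes encode the subunits of its catalytic part, and a difference between kinds of subunit was not tested. eIF2Bgamma had a signal of 226.0 at rank 4250, 15 bp downstream of its start, with ranks of 5070 in replicate 2 and 3615 in replicate 3. eIF2Bepsilon had 180.5 at rank 6054, with ranks of 5174 and 9391. Its summit lay 424 bp upstream, and nearer to the divergent gene Ocrl at 317 bp. Of the regulatory subunits, eIF2Bdelta had a candidate of 136.6 at rank 8722, with ranks of 14015 and 5905, while eIF2Balpha and eIF2Bbeta had none in the pooled list. In replicate 3 alone a candidate was listed at eIF2Balpha, at rank 9446, and in replicate 2 alone at eIF2Bbeta, at rank 26495. The nearest pooled summit to eIF2Bbeta, 670 bp away, was the peak of rank 2 in the whole list, with a signal of 3150.2. It counts for eIF2Bbeta only with a wider window or by any base of the peak.

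eIF2A and eIF2D, which can deliver tRNA to the small subunit outside the main route, were both bound. eIF2A had a signal of 252.3 at rank 3489, 45 bp upstream of a start, with ranks of 4326 in replicate 2 and 2931 in replicate 3. eIF2D had 240.2 at rank 3827, 131 bp upstream, with ranks of 3522 and 4511. Neither summit lay in range of another gene's start.

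The scaffold eIF3, which holds the small subunit and the other factors together, had 7 of 16 genes bound, beside 30.1% of protein-coding genes. A pooled candidate was listed at 11 of 16, near the 60.4% of protein-coding genes. The strongest were eIF3h and eIF3a. eIF3h had a signal of 679.7 at rank 367, 3 bp upstream of a start, with ranks of 525 in replicate 2 and 288 in replicate 3. eIF3a, the largest core subunit, had 501.0 at rank 786, 4 bp upstream, with ranks of 982 and 648. Both summits lay on the gene's own start, and each also lay near a divergent gene, senju at 60 bp from the eIF3h summit and CG1074 at 66 bp from that of eIF3a.

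The 5 other bound eIF3 genes were weaker. eIF3c, a core subunit, had a signal of 280.8 at rank 2863, with ranks of 3988 and 2056. eIF3f1 had 276.1 at rank 2945, with ranks of 2750 and 3642, and its summit was 8 bp upstream of its start and 3 bp from the centre of the DRE printed above. eIF3j, a loosely attached subunit, had 189.3 at rank 5623, with ranks of 4576 and 7378. eIF3b, a core subunit, had 184.6 at rank 5849, with ranks of 5315 and 6405, and eIF3m had 164.9 at rank 6910, with ranks of 7082 and 6769. The lowest thresholded signal was 163, so eIF3m stood just inside the threshold.

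Among the other eIF3 genes, eIF3d1, eIF3i, eIF3k and eIF3l had candidates below the threshold, with signals of 111.8, 105.5, 104.0 and 67.2. eIF3d2, eIF3e, eIF3f2, eIF3g1 and eIF3g2 had none in the pooled list. The fly has 2 genes each for the d, f and g subunits. Of these pairs, d had a pooled candidate at d1 and none at d2, f a thresholded peak at f1 and no candidate at f2, and g no pooled candidate at either gene. In replicate 2 alone weak candidates were listed at eIF3g1, at rank 17422, and at eIF3g2, at rank 29900. In replicate 3 alone 1 was listed at eIF3e, at rank 23543. Subunits of this complex thus ranged from rank 367 to no pooled candidate.

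The cap-binding group eIF4 had 5 of 13 genes bound, near the 30.1% of protein-coding genes. A pooled candidate was listed at 6 of 13, beside 60.4%. eIF4EHP, a relative of the cap-binding protein that represses chosen mRNAs in the fly embryo, was by far the strongest. Its signal was 986.1 at rank 139, with ranks of 103 in replicate 2 and 175 in replicate 3. The summit lay 201 bp upstream of eIF4EHP and 175 bp upstream of the divergent gene CG18428. The gene body held 3 further thresholded summits, more than 500 bp from its start, with signals of 408.7, 278.8 and 198.8. eIF4EHP and eIF1 were thus the 2 strong initiation factor genes with a summit over 200 bp from their own start.

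The other bound genes of this group had modest peaks. eIF4A, the helicase that unwinds the mRNA, had a signal of 237.9 at rank 3891, with ranks of 6546 and 2721. eIF4G2, a second scaffold gene, had 215.0 at rank 4629, at a start that CG33111 shares. eIF4H1, a helicase cofactor, had 183.9 at rank 5876. eIF4E1, the main cap-binding protein, had 175.2 at rank 6340, and a replicate 2 rank of 5300. For eIF4G2, eIF4H1 and eIF4E1 replicate 3 had no candidate within 100 bp of the pooled summit. For eIF4E1 and eIF4G2 it had others within 500 bp of a start, at ranks 4658 and 5285.

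eIF4E6 had a candidate of 121.0 at rank 10024, below the threshold. eIF4E3, eIF4E4, eIF4E5 and eIF4E7, which are further cap-binding genes, had no pooled candidate, nor did the scaffold gene eIF4G1 and the helicase cofactors eIF4B and eIF4H2. In replicate 2 alone a weak candidate was listed at eIF4G1, at rank 26640. The nearest candidate to eIF4B lay 590851 bp away and the nearest thresholded summit 4762854 bp away, so that no peak was listed over a long stretch around this gene. Among the cap-binding genes only eIF4E1 and eIF4EHP were bound.

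eIF5B and eIF6 act on the large ribosomal subunit, and both were bound. eIF6, which keeps the subunits apart and is needed to make the large one, had the strongest signal among initiation factor genes. Its signal was 1122.4 at rank 80, with ranks of 94 in replicate 2 and 68 in replicate 3. The summit lay 99 bp upstream of eIF6 and 70 bp downstream of the start of the noncoding RNA gene asRNA:CR45928. eIF5B, the GTPase that joins the subunits, had 195.5 at rank 5330, 34 bp upstream, with ranks of 4953 and 7675, and a further thresholded summit of 240.3 in the gene body.

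Elongation factor genes had strong peaks at 4 of 7 promoters, beside 30.1% of protein-coding genes bound. All 7 had a candidate, beside 60.4% of protein-coding genes. eEF1gamma, a subunit of the exchange factor that reloads eEF1A with GTP, had the strongest promoter peak of all 53 genes. Its signal was 1218.9 at rank 54, with ranks of 85 in replicate 2 and 42 in replicate 3, at the peak chr3R:29219905-29220352. The summit was 12 bp upstream of the start and 25 bp from the centre of the DRE printed above. eEF2, which moves the ribosome by a codon, had a signal of 675.6 at rank 374, 20 bp downstream of a start, with ranks of 434 and 298. eEF5, the factor that helps the ribosome past runs of proline, had 360.7 at rank 1699, 11 bp downstream of a start, with ranks of 1685 and 1873. All 3 summits were within 20 bp of a start, and no other gene's start was in range.

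eEF1alpha1, the main gene for the factor that delivers aminoacyl-tRNA, had 4 thresholded summits near its 4 starts. The strongest had a signal of 359.1 at rank 1715, 7 bp downstream of an internal start, with ranks of 2086 in replicate 2 and 1275 in replicate 3. The other 3 summits had signals of 282.4, 196.6 and 176.8. Another pair of summits, of 539.2 and 346.9, lay at -1677 and -1477 bp from the canonical start, the one Ensembl takes as representative, and outside the window of every annotated start. eEF1alpha1 was thus the factor gene with the most thresholded summits in range.

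The other 3 elongation factor genes fell below the threshold. eEF1beta, the catalytic subunit of the exchange factor, had a candidate of 150.6 at rank 7773, with a rank of 6701 in replicate 2 and 10212 in replicate 3. eEF1delta, a related subunit, had 95.9 at rank 12870, with ranks of 10794 and 20090, although its start region holds a DRE at -29 bp. eEF1alpha2, the other eEF1A gene, had 55.6 at rank 21426, with ranks of 28805 and 21704. The subunits of the exchange factor therefore ran from rank 54 for eEF1gamma to rank 12870 for eEF1delta. A thresholded summit of 282.4 lay 1155 bp from the start of eEF1beta, beyond the 3′ end of the gene.

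**Figure D2:**
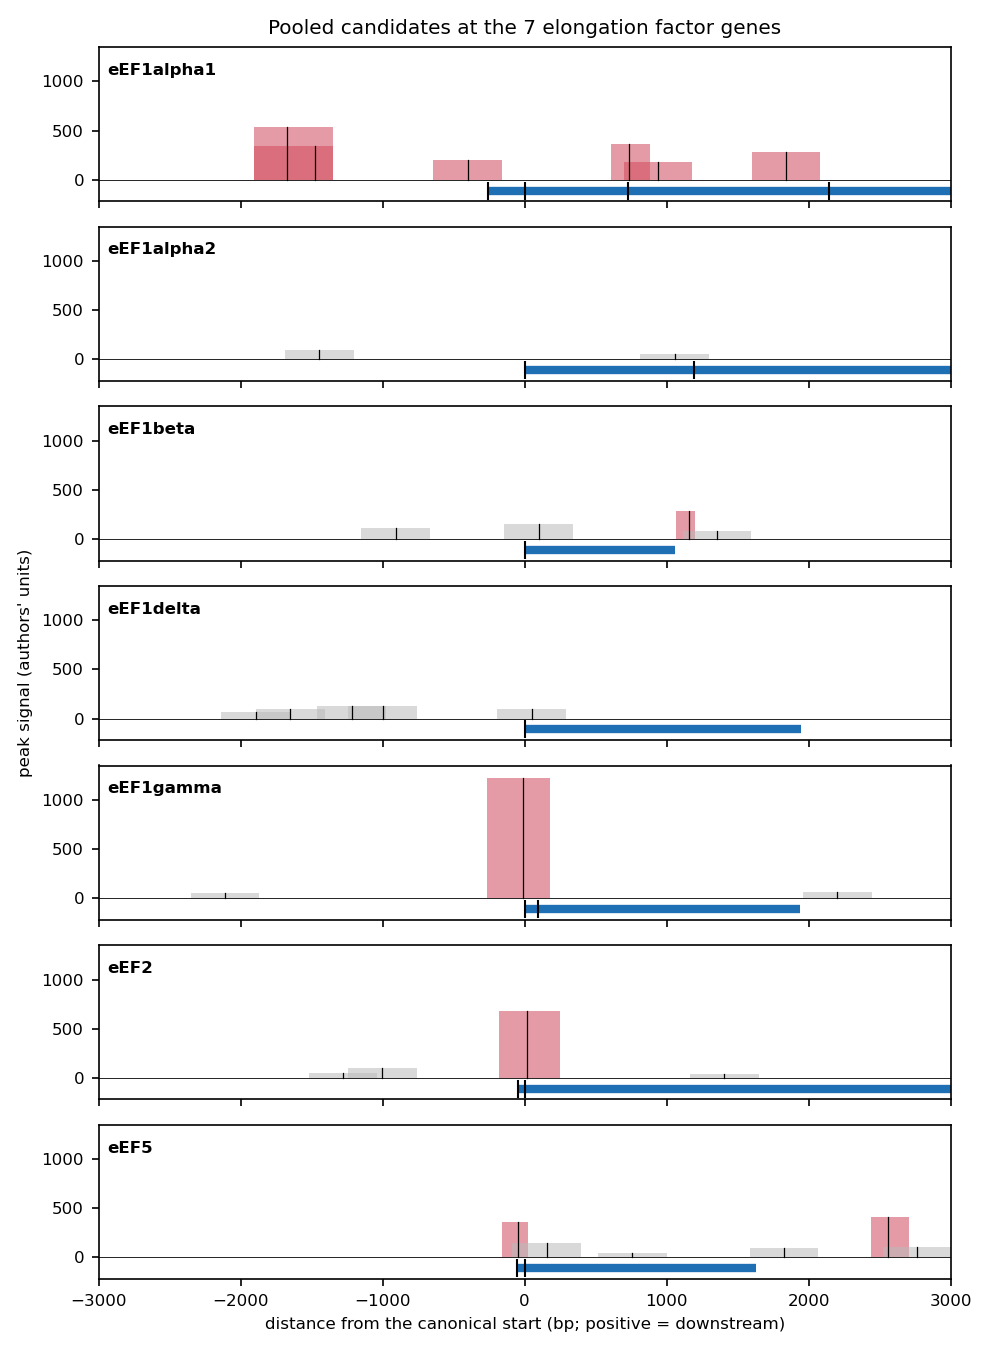
Pooled candidate peaks around the canonical start of each of the 7 elongation factor genes, as distance from that start in bp against the authors' peak signal; red boxes passed the threshold, grey boxes did not, thin lines are summits, blue bars are genes and black ticks are annotated starts. eEF1gamma has a single tall peak at its start (1218.9), eEF1alpha1 has several lower ones, and eEF1alpha2 has no candidate above 100 within view.

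Of the release factor genes, eRF1, which reads the stop codon, was bound and eRF3, its GTPase partner, was not. eRF1 had a signal of 195.1 at rank 5357, 42 bp upstream of a start, with ranks of 7862 in replicate 2 and 3784 in replicate 3, so that it reached the 7025 highest only in replicate 3. eRF3 had a candidate of 138.3 at rank 8579, 71 bp upstream of the divergent gene SC35 and farther, 156 bp, from its own. With 2 genes the share of bound release factors, 1 of 2, carries little information.

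Initiation and elongation factor genes were then set side by side. Bound were 21 of 44 initiation factor genes (47.7%) and 4 of 7 elongation factor genes (57.1%), beside 30.1% of protein-coding genes. Several starts were annotated for 34.1% of initiation and 71.4% of elongation factor genes. Among genes with several starts the shares were equal, 12 of 15 and 4 of 5 (80% each), beside 49.7% of such protein-coding genes. Among genes with a single start 9 of 29 initiation and 0 of 2 elongation factor genes were bound, beside 23.0%. Over the replicates the shares were 43.2% ± 3.21 and 64.3% ± 10.1, beside 29.4% ± 0.908 of protein-coding genes (SD, n = 2). A single elongation factor gene, eEF1beta, makes the whole difference between the replicates for that group, and no test over genes was made. Candidates were found at 30 of 44 initiation factor genes (68.2%) and at all 7 elongation factor genes, beside 60.4% of protein-coding genes. Of the genes with a candidate, 70.0% of initiation and 57.1% of elongation factor genes passed the threshold, beside 49.7% of protein-coding genes, so that the order of the groups turns with the measure.

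The strength of the bound promoters was read in the same way. The median signal was 226 for the 21 bound initiation and 518 for the 4 bound elongation factor genes, and the median rank 4250 and 1036.5. For each replicate the median was taken over the genes bound in that replicate, which are not all the same genes. In replicate 2 the median rank was 4386 for 20 initiation and 1685 for 5 elongation factor genes. The 5 include eEF1beta, which was not bound in the thresholded list. In replicate 3 it was 3273 for 18 initiation and 786.5 for 4 elongation factor genes, the same order both times. In the thresholded list the ranges overlapped, since initiation factor signals ran from 165 to 1122 and elongation factor signals from 359 to 1219. Among the 3512 highest thresholded peaks were 8 of 44 initiation factor genes (18.2%) and 4 of 7 elongation factor genes, beside 16.6% of protein-coding genes. At that depth the share of initiation factor genes was near the background.

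**Figure D3:**
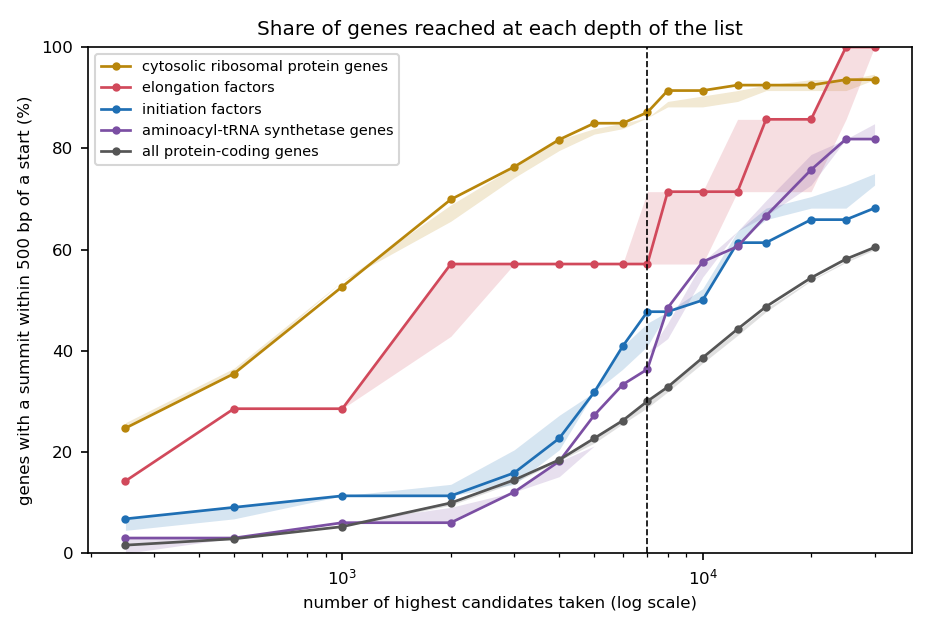
Share of genes in each group with a summit within 500 bp of a start (percent) against the number of highest candidates taken from the pooled list (log axis); lines are the pooled list, bands span the 2 replicates and the dashed line is the length of the thresholded list. Initiation factor genes stand at 15.9% against 14.5% of protein-coding genes at 3000 and at 47.7% against 30.1% at 7025. Within the first 2000, 4 of 7 elongation factor genes are reached, beside 9.97% of protein-coding genes.

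Position and neighbours were compared without a test, over few elongation factor genes. The summit of a bound gene lay within 100 bp of a start at 15 of 21 initiation and 4 of 4 elongation factor genes, 76.9% of all 26, beside 46.5% of bound protein-coding genes. It was 91.4% of bound ribosomal protein genes and 50% of bound aminoacyl-tRNA synthetase genes. Distance was taken to the nearest start of the gene. Several starts were annotated for 17 of the 26, beside 1837 of 4191 bound protein-coding genes, and their part in this was not tested. Median positions were -34 bp for initiation, 9 bp for elongation and -74 bp for bound protein-coding genes, with negative values upstream. At 11 of 21 bound initiation factor genes the summit was also within 500 bp of another gene's start (52.4%), as it was for 49.1% of bound protein-coding genes. This held for none of the 4 elongation factor genes. All 5 initiation factor genes among the 1000 strongest peaks, eIF6, eIF4EHP, eIF1, eIF3h and eIF3a, had such a neighbour, and a peak list does not say which gene a shared peak belongs to.

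**Figure D4:**
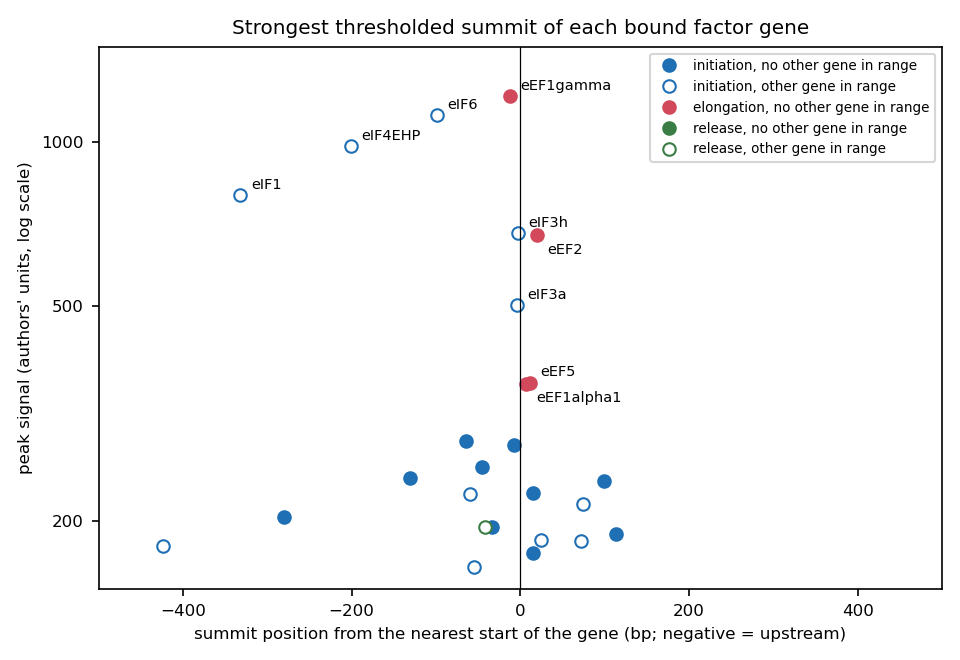
Position of the strongest thresholded summit of each of the 26 bound factor genes from the nearest start of that gene (bp, negative upstream) against the authors' signal (log axis); open symbols have another gene's start within 500 bp of the same summit. The 4 elongation factor genes lie within 20 bp of a start, and the strongest initiation factor genes are all open symbols.

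The DRE was searched first at the summits of the bound factor genes. Within 100 bp on either side of the strongest summit, 8 of 26 bound factor genes held a DRE (30.8%), beside 22.2% of bound ribosomal protein genes and 6.17% of the 3244 peaks at bound protein-coding genes. The 8 genes were eEF1gamma, eIF1, eIF2A, eIF2gamma, eIF3a, eIF3f1, eIF6 and eRF1. Of these, eIF1, eIF2gamma, eIF3a, eIF6 and eRF1 had another gene's start within 500 bp of the same summit. Because a DRE lies close to starts, the count was repeated for summits within 100 bp of a start. There 7 of 20 factor genes held one (35%), beside 9.37% of 1782 peaks.

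The DRE did not separate bound from unbound factor genes. In the window from 250 bases upstream to 50 bases downstream of the canonical start, it was found at 8 of 26 bound (30.8%) and 7 of 27 unbound factor genes (25.9%), and at 8.94% of 13944 protein-coding genes. eEF1delta, eIF1A, eIF2Bbeta, eIF2alpha, eIF3l, eIF4B and eIF4E6 held a DRE in this window without a thresholded peak. The TCT core stood at 2 of 7 elongation factor genes, eEF2 and eEF5, and at 6.82% of initiation factor genes, beside 45.2% of ribosomal protein genes and 5.72% of protein-coding genes. These matches are letters in a window and not shown to be sites of any factor.

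Other strings were searched at the summits on both strands. CGATA was in 61.5% of the windows of bound factor genes and in 41.6% of those of bound protein-coding genes, DREs included. A GATA site, taken as GATA with A or T before it and A or G after it, was in 19.2% and 40.5%. CTTATC, whose reverse complement overlaps that site, was in 23.1% and 19.7%, GAGAG in 15.4% and 28.9%, and TATAAA in 23.1% and 25.4%. The core of Motif 1, GGTCACAC, was in 11.5% and 4.84%. CACGTG, an E-box, was in none of the 26 windows and in 3.55% of the others. At summits, factor genes thus held the DRE and the Motif 1 core, the latter in 3 of 26 windows, at higher shares than bound genes as a whole. So they did CGATA with DREs counted in, and CGATA outside a DRE was not counted apart. They held the GATA site and GAGAG at lower shares. Bound ribosomal protein genes had similar summit shares, 24.7% for the GATA site and 17.3% for GAGAG. In the start window the GATA site was at 50% of bound factor genes and 49.3% of bound protein-coding genes. Its lower share was thus seen at summits and not there. GAGAG was lower in the start window too, at 11.5% and 34.0%. TATAAA was higher in the start window, at 65.4% of bound factor genes and 42.4% of bound protein-coding genes. Among unbound factor genes it was at 33.3%. At summits within 100 bp of a start the GATA site was in 15% and 35.5%, and GAGAG in 20% and 27.9%.

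Genes around the factors were read from a further list of 22 genes of translation control, of which 13 were bound (59.1%), beside 30.1% of protein-coding genes. In replicate 2 there were 13, beside 28.8% of protein-coding genes, and in replicate 3 there were 15, beside 30.0%. Thor, the 4E-binding protein that blocks eIF4E, had a signal of 598.3 at rank 505, 14 bp upstream of its start, with ranks of 386 and 647. Lk6, the kinase of eIF4E, had 590.0 at rank 521, with ranks of 745 and 399. crc, the ATF4 factor made when eIF2alpha is phosphorylated, had 379.3, and PEK, an eIF2alpha kinase, had 274.5. Thor and Lk6, which act on eIF4E, both ranked above eIF4E1 at 6340.

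The other bound genes of that list were eEFSec, the selenocysteine elongation factor (397.5), Pdcd4, an inhibitor of eIF4A (352.7), the diphthamide genes Dph1 (368.3) and Dph2 (184.5), which modify eEF2, the helicase gene bel (271.7), the kinase gene S6k (257.5), Paip2, an antagonist of the poly(A)-binding protein (235.3), the recycling factor gene pix (205.6), and pelo, the ribosome rescue factor (178.9). Below the threshold were HBS1, the partner of pelo (156.0), PPP1R15, which directs removal of the eIF2alpha phosphate (152.6), mTor, the growth kinase (142.0), pAbp, the poly(A)-binding protein (98.0), MCTS1 (84.3) and Dph5 (80.6). The eIF2alpha kinase gene Gcn2, the decay helicase gene Upf1 and DENR had no pooled candidate.

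Genes of the ribosome and of tRNA charging give a scale for the factors. Of 93 cytosolic ribosomal protein genes, 81 were bound (87.1%), with a median signal of 532 and 52.7% among the 1000 strongest peaks. Of 33 aminoacyl-tRNA synthetase genes, 12 were bound (36.4%), with a median signal of 232 and 6.06% among the 1000 strongest. At the threshold the synthetase values lay close to those of all protein-coding genes, 30.1% bound, a median signal of 268 and 5.28% among the 1000 strongest. The factor genes, at 49.1% and 239, lay between these lists in share and near the synthetases in signal, while the median signal of the 4 bound elongation factor genes, 518, was close to that of the ribosomal proteins. In both replicates the shares were ordered the same way, 86.0% ± 0 for ribosomal protein genes, 45.3% ± 2.67 for factor genes and 39.4% ± 0 for synthetase genes (SD, n = 2). For protein-coding genes the share was 29.4% ± 0.908. With all pooled candidates the order turned, at 81.8% of synthetase and 73.6% of factor genes, beside 60.4% of protein-coding genes.

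By chromosome arm, the factor genes on 2R were bound at 8 of 12 and those on X at 2 of 7. On 2L, 3L and 3R the counts were 3 of 6, 6 of 12 and 7 of 15, and eIF4G1, on chromosome 4, was not bound. The X-linked pair, eIF2Bepsilon and eIF4H1, was bound in replicate 2 and in neither case in replicate 3. Over all protein-coding genes the shares were 27.1% on X and 31.3% on 2R. They were 28.7% on 2L, 30.9% on 3L, 31.3% on 3R and 30% on chromosome 4. The count of factor genes on X was thus near the share of that arm.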

How the data were processed

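Peak lists of biological replicates 2 and 3, of the pooled replicates, and a thresholded list (the optimal set kept by an irreproducible discovery rate analysis, per the deposited file listings) were used on build dm6. Each line holds the authors' peak signal, in units that are not stated, and the deposited −log10 q value, from 3.51 to 3.99 in the thresholded list, which was not used to choose peaks. No aligner or peak caller is named in the sources used here, and the depth is unknown.

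Summits were compared with starts of Ensembl release 115 (BDGP6.54) within 500 bp, in Python 3.11.15 with pandas 2.3.3 and numpy 2.4.6, after the scripts had been tested on simulated data. A summit offset past its interval (2 thresholded lines) was set to the last base. Each gene took its strongest summit in range. Replicate ranks given beside a factor gene's pooled summit are those of the strongest candidate within 100 bp of that summit. Replicate counts and median ranks take the strongest candidate within 500 bp of a start. So do the replicate ranks of eIF2Balpha, eIF2Bbeta, eIF3e, eIF3g1, eIF3g2, eIF4G1, Thor and Lk6. Signals were compared within a list, and ranks between lists. All 53 genes have the same coordinates in RefSeq. Of the genes listed for translation control, eEF1akmt matched no annotated gene. Every gene of the rule is accounted for. The genes, lists and motifs were chosen with earlier results of these data known, so no test over genes was made. Alternatives were other windows, single replicates, stricter or no threshold, nearest starts, any base of a peak and, chosen after seeing the data, canonical starts and summits within 100 bp.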

Additional observations from a re-analysis of the deposited data

How the results depend on the processing

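The 26 bound factor genes became 23 within 200 bp of a start, 29 within 1000 bp, 22 with nearest starts only (losing eIF6, eIF4EHP, eIF2gamma and eIF2Bepsilon), 28 by any base of a peak and 25 with canonical starts, while protein-coding genes moved from 30.1% to 23.8%, 34.2%, 23.7%, 32.0% and 27.1%. Elongation factors stayed at 4 under each of these. With the 3512 highest peaks 12 factor genes were bound, 8 of them initiation and 0 release factors, with a median signal of 588. With the 1000 strongest, 7 were, 5 initiation, 2 elongation and 0 release factors, with a median of 799.8. With all candidates 39 were, among them 7 elongation and 2 release factors. Without either replicate the counts ranged from 23 to 25 for all factors, 18 to 20 for initiation, 4 to 5 for elongation and 0 to 1 for release. The median signal was not recomputed from single replicates, whose signals are on another scale. No paired analysis was possible because there is 1 group. The lists give peaks and no reads, so a missing peak says only that no peak was listed, and 2 replicates give a coarse error.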
